A study of Mus musculus with 9 samples.

Results

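The genes described are those that make cholesterol and fatty acids, read in osteocyte-enriched shafts of the mouse tibia across the reproductive cycle. They were 33 genes chosen by name, as the array probe sets annotated to exactly 1 of them, with the probe set of the highest mean over the 9 arrays standing for each gene. Of the 33, 32 were measured among 18194 genes in all, and Acat2, a cytosolic thiolase that supplies the first precursor, had no probe set of its own. There were 17 measured sterol genes, 5 regulators and 10 fatty acid genes. All mice were CD1 wild type, 16 to 18 weeks old. The 3 groups were age-matched virgin controls, dams on day 12 of lactation, and dams on day 7 after their pups were taken away on that lactation day, called post-lactation, with 3 arrays in each. Dams started at 12 weeks of age and nursed adjusted litters of 8 to 13 pups. Bone was stripped of periosteum and marrow and digested several times with collagenase, trypsin and EDTA, so the RNA came from what stayed inside the shaft. The labels name tibiae, except that the step removing periosteum is described for femurs, and tibia is used here. The labels do not tie arrays to single mice, so the p-values cover only array-to-array spread, which may be technical. For post-lactation arrays the title and the source field conflict, the source naming virgin bone, and the title was followed.

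Cells build cholesterol from acetyl-CoA through the mevalonate pathway, which leads to squalene, then to lanosterol, and by removal of methyl groups and shifts of double bonds to cholesterol. Fatty acids start from the same precursor: ATP citrate lyase makes it, acetyl-CoA carboxylase and fatty acid synthase build the chain, and elongases and desaturases lengthen it and add double bonds. Both branches are controlled by SREBP transcription factors, which are held in the endoplasmic reticulum by Scap and the Insig proteins while sterols are plentiful and bind sterol regulatory elements in promoters when sterols run low. Bone-resorbing and bone-forming cells both need the mevalonate pathway, and its enzyme farnesyl diphosphate synthase is the target of nitrogen-containing bisphosphonates.

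Promoters of 4 of the sterol genes given by array below are shown first, chosen among those with an entry, as the 250 bases before the start in RefSeq's GRCm38.p6 table, read 5′ to 3′ on the gene's strand. Capitals mark the sterol regulatory element TCACNCCAC and the NF-Y box CCAAT, the site of a factor that works beside SREBP, which reads ATTGG where it lies on the opposite strand. Hmgcs1 lies at chr13:119690101-119690350 on the plus strand, Idi1 at chr13:8885356-8885605 on the plus strand, Msmo1 at chr8:64733579-64733828 on the minus strand, and Nsdhl at chrX:72918271-72918520 on the plus strand.
Hmgcs1: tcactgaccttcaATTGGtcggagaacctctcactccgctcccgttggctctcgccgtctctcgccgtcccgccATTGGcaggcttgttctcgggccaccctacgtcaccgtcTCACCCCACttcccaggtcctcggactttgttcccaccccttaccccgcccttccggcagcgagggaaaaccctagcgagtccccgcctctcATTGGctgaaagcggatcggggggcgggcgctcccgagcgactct
Idi1: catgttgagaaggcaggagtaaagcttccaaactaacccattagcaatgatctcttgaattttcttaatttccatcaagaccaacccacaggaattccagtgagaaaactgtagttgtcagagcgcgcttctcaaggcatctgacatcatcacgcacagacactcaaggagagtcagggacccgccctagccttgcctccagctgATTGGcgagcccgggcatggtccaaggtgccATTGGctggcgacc
Msmo1: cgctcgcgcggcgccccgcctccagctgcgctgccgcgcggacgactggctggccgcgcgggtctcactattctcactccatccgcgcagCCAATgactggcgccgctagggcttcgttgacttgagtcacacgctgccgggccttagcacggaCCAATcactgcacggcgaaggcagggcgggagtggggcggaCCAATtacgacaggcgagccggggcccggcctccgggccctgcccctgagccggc
Nsdhl: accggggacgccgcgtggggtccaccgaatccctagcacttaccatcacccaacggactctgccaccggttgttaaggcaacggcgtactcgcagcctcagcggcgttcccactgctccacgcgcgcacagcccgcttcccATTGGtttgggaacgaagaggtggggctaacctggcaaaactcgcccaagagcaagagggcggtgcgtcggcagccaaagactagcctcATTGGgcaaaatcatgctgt

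Of the 33 genes, 27 had 36 promoters in that table, and the other 6 were Fads1, Fdft1, Fdps, Scd1, Scd2 and Sqle. Searched on both strands, TCACNCCAC was in 1 of the 36, that of Hmgcs1, where it began 137 bases before the start, and in 1.05% of all 32851 promoters. CCAAT was in 14 of 18 promoters of sterol genes, 5 of 10 of regulators and 3 of 8 of fatty acid genes, against 33.8% of all promoters. Hmgcs1 and Msmo1 each held 3 CCAAT boxes, and Idi1 and Nsdhl each held 2. The Sp1 box GGGCGG was in 15 of 18, 7 of 10 and 4 of 8 promoters of the same lists, against 32.7% of all. The E-box CACGTG was in 3 of 18, 2 of 10 and 1 of 8, against 6.02%. A match describes the letters and shows no binding.

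The values are log2 signals, so a difference of 1 is a doubling, and differences are named as the first group minus the second. Array medians ran from 4.32 to 4.82, and shared exact values sorted the arrays into 3 sets of 3, with each group present once per set. Virgin 1 belongs to set 1 together with post-lactation 1 and lactation 3. Set 2 joins virgin 2 to post-lactation 3 and lactation 2, while set 3 joins virgin 3 to post-lactation 2 and lactation 1. That sets reflect joint summarisation by RMA is an inference from these ties and is in no label. The osteocyte genes Sost, Dmp1, Phex and Mepe were above the 40th percentile of gene means, 4.87, on every array, while Fgf23 averaged below it in every group. Virgin 1 stood apart: its 6 osteocyte markers averaged 3.91 above the array median, against 5.20 to 6.09 in the other 8 arrays, and its Sost was 8.14 against 11.59 to 13.55. The dim Fgf23 went the other way, at 4.46 in virgin 1 against 2.60 to 3.02 elsewhere. No member averaged below 4.87 in any group. Neutrophil markers were brighter than osteocyte markers: 7 of them averaged 8.31 to 9.24 above the array median over the 9 arrays. Since bulk RNA was read, fewer cells of a type and less RNA per cell cannot be told apart. Exact ties were common within sets: 18 of the 32 members had at least 1 equal pair within a set, and 14.6% of members' within-set pairs were equal, against 25.5% over all genes. In set 2 the 3 arrays were identical for 5 members, and in set 3 for 5.

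No member passed the test in any of the 3 comparisons. With limma and Benjamini-Hochberg adjustment over all 18194 genes at 0.05, 0 of 32 were called in lactation against virgin (0% of all genes), 0 in post-lactation against lactation (0.709% of all genes) and 0 in post-lactation against virgin (0.176%). With the array set as a block, which removes the offsets between sets, 0 of 32 were called again in each, against 0.022%, 3.53% and 0.451% of all genes. At an unadjusted p under 0.05 without the block, lactation against virgin gave 0 members lower (0.291% of all genes) and 0 higher (1.51%). Post-lactation against lactation gave 0 lower (3.49%) and 1 higher, Scd1 (1.57%). Post-lactation against virgin gave 2 lower, Fdps and Sqle (1.26%), and 1 higher, Scd1 (0.835%). With the block lactation against virgin gave 2 lower, Hmgcs1 and Acly (2.25%), and 0 higher (5.75%). Post-lactation against lactation then gave 3 lower, Fdft1, Nsdhl and Srebf1 (9.45%), and 1 higher, Acly (5.61%), a share near that of all genes. The lowest adjusted p of any member with that block was 0.0689, for Nsdhl. All that follows is therefore given as values. Array values are given for the 12 members of smallest unadjusted p in the limma fit without the block, which were Scd1, Sqle, Fdps, Hmgcs1, Fdft1, Idi1, Scd2, Msmo1, Fads1, Nsdhl, Srebf1 and Cyp51.

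**Figure D1:**
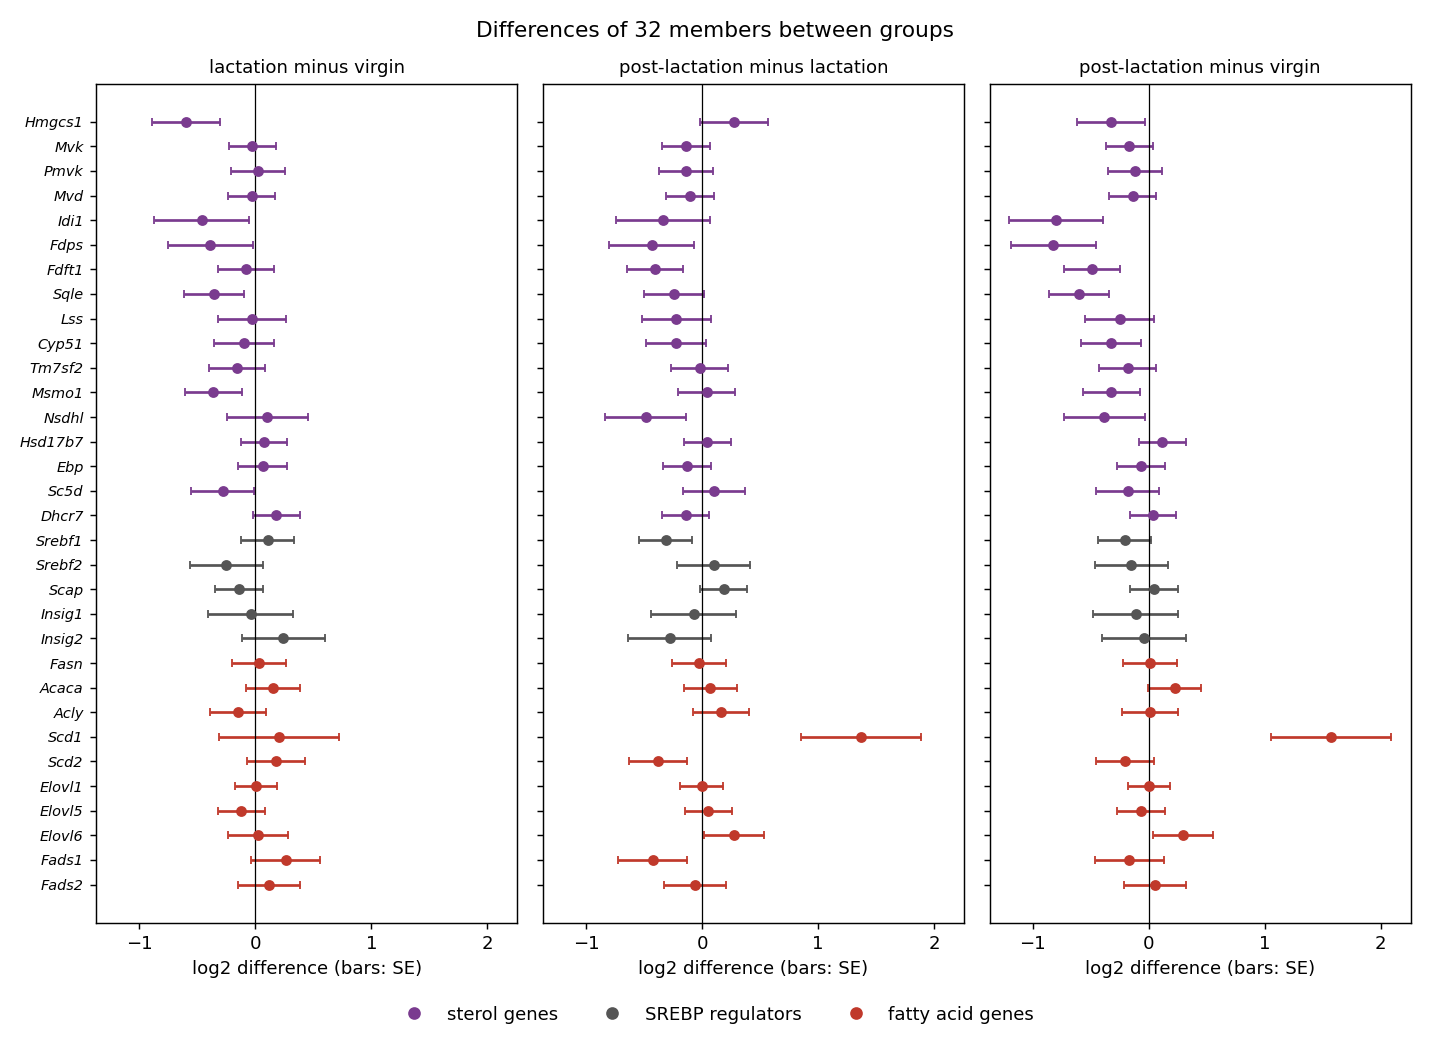
Differences in log2 signal of the 32 measured members, from left to right lactation minus virgin, post-lactation minus lactation and post-lactation minus virgin, with bars for the SE of the limma fit without a block (3 arrays per group). Purple marks sterol genes, grey regulators and red fatty acid genes, most points lie within 0.5 of 0, and Scd1 stands farthest to the right in the last 2 panels, at 1.37 and 1.58.

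The sterol genes had mostly lower means in dams. In lactation against virgin 12 of 17 had a lower mean and the median difference was -0.08, beside 47.2% of all genes lower and a median over all genes of 0.01. After weaning 13 of 17 were lower than in lactation, with a median of -0.14 beside 49.6% and 0.00 over all genes. Post-lactation against virgin, 15 of 17 were lower, with a median of -0.25 beside 48.7% and 0.00 over all genes. The 2 exceptions there were Hsd17b7 and Dhcr7, at 0.12 and 0.04. The comparisons share groups, so their values are not independent of each other.

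Within sets, that last median was farthest from 0 in set 1. Within sets 1, 2 and 3 the sterol median of post-lactation minus virgin was -0.60, 0.00 and -0.08. In post-lactation minus lactation it was -0.42, 0.00 and 0.00, and in lactation minus virgin -0.13, -0.02 and 0.00. Without post-lactation 1 the median against virgin was -0.10 and that against lactation 0.03. Without virgin 1 the median of post-lactation minus virgin was -0.17. In lactation minus virgin, leaving out 1 array with or without the set block gave a sterol median of -0.16 to 0.03, so its sign turned. Above the array median, the 17 genes averaged 2.89 in virgin 1 and 2.15 in post-lactation 1, the highest and the lowest of the 9 arrays, which otherwise ran from 2.27 to 2.68. Array medians differed by set, from 4.32 to 4.345 in set 1 and from 4.57 to 4.82 in the other sets. Taking them away therefore lifts set 1 arrays beside those of other sets. How far virgin 1 stands out depends on that step. Virgin 1 is also the array with the lowest osteocyte marker level, and the part of that in the result was not tested.

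**Figure D2:**
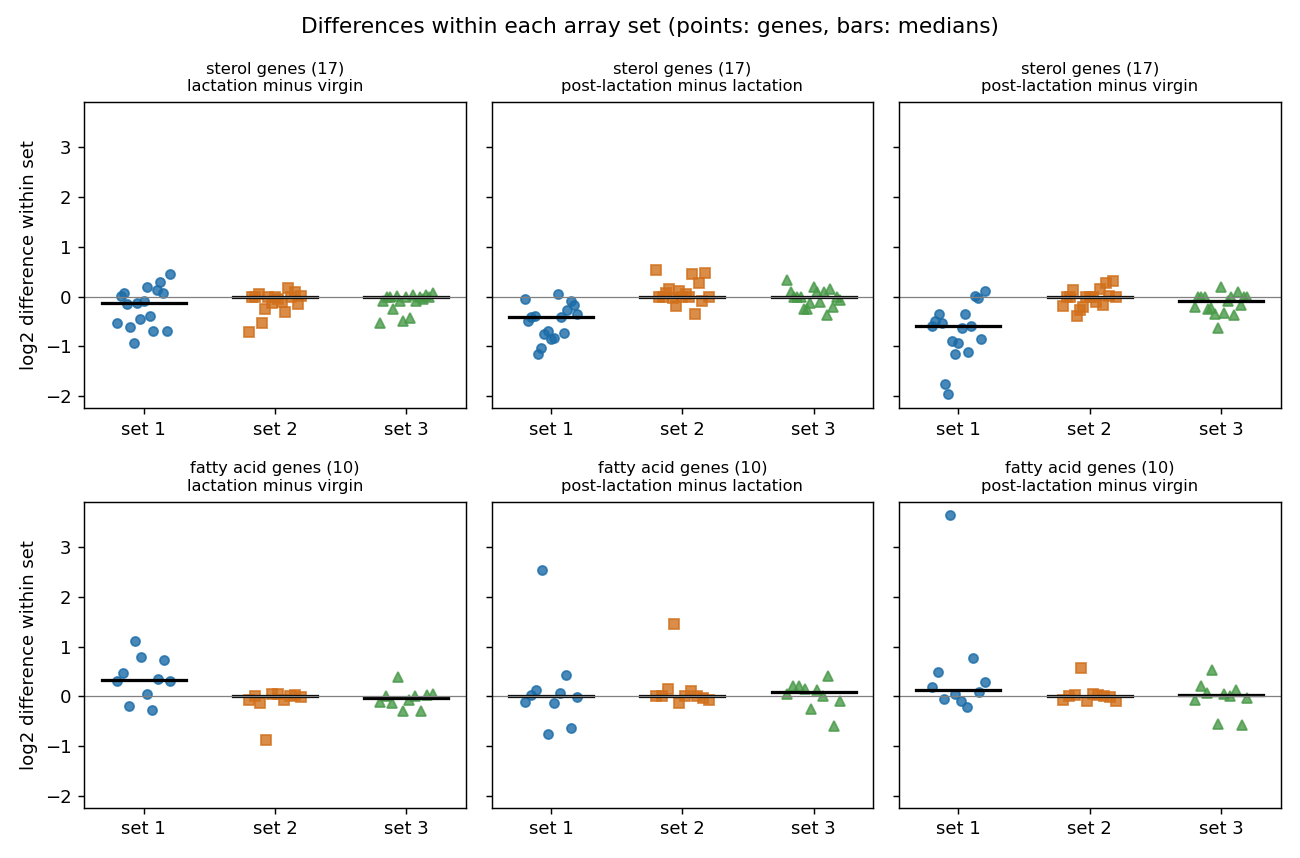
Differences in log2 signal within each array set (x axis), 1 point per gene, for the 17 sterol genes (top) and 10 fatty acid genes (bottom) in the 3 comparisons, with black bars at the median. Sterol genes lie low in set 1 of post-lactation minus virgin, where the median is -0.60, while sets 2 and 3 centre on 0.00 and -0.08. Exact ties, which plot at 0, are far more common in sets 2 and 3 than in set 1.

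Hmgcs1 was lower in lactation than in virgin by a similar amount in each set. It encodes the cytosolic HMG-CoA synthase, which makes the substrate for mevalonate, and its promoter is the one shown above with the sterol regulatory element. Hmgcs1 read 9.30, 9.80 and 9.86 in virgin arrays 1, 2 and 3, and 9.32, 9.09 and 8.76 in lactation arrays 1, 2 and 3. In post-lactation arrays 1, 2 and 3 it read 8.71, 9.66 and 9.62. Lactation arrays were low apart from lactation 1, which passed virgin 1 by a narrow margin, so the groups overlapped. The mean was 9.65 ± 0.31 (SD, n = 3) in virgin and 9.06 ± 0.28 in lactation, a log2 difference of -0.60 (SE 0.29, limma adjusted p = 1). Within sets 1, 2 and 3 the difference was -0.54, -0.72 and -0.54, and the set block gave an SE of 0.12 and an unadjusted p of 0.00219, with limma adjusted p = 0.193. Leaving out 1 array gave -0.77 to -0.45. The other 3 of its probe sets with a mean over 4.87 gave -0.73, -0.63 and -0.41, and a dim one gave -0.32. Against lactation, post-lactation was higher by 0.27 (SE 0.29), with within-set values of -0.05, 0.53 and 0.33, and by 0.11 without post-lactation 2 or 0.58 without post-lactation 1.

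Idi1, the isomerase that makes the reactive isoprene unit, was lowest in post-lactation 1. It read 8.01, 8.34 and 8.26 in virgin 1 to 3, and 8.02, 7.80 and 7.40 in lactation 1 to 3. Its post-lactation arrays 1 to 3 read 6.25, 8.02 and 7.94. A single array, post-lactation 1, lay far below the others, and the rest of that group overlapped lactation. Post-lactation minus virgin was -0.80 (SE 0.41, limma adjusted p = 1), or -1.76, -0.40 and -0.24 within sets 1 to 3. Without post-lactation 1 it was -0.22. A dimmer second probe set of Idi1 gave -1.16, and lactation minus virgin was -0.46 (SE 0.41), or -0.29 without lactation 3.

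Fdps, farnesyl diphosphate synthase, had its largest gap in set 1. Its values were 9.05, 8.50 and 7.70 in virgin 1 to 3, and 7.71, 8.26 and 8.12 in lactation 1 to 3. Post-lactation 1 to 3 gave 7.09, 7.46 and 8.22. The set 3 array was the lowest of the virgin and of the lactation group, and the groups overlapped. Post-lactation minus virgin was -0.82 (SE 0.37, unadjusted p = 0.0463, limma adjusted p = 1) and -1.96, -0.28 and -0.23 within sets. Without virgin 1 it was -0.51. The other mevalonate enzymes, the kinases Mvk and Pmvk and the decarboxylase Mvd, differed by -0.17 to 0.02 in every comparison. Pmvk was exactly 7.29 in all 3 arrays of set 2 and 6.92 in all 3 of set 3.

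Fdft1, squalene synthase, and Sqle, squalene epoxidase, carry out the first steps given over to sterols. Fdft1 read 7.93, 8.08 and 8.10 in virgin 1 to 3, and 8.01, 8.06 and 7.79 in lactation 1 to 3. It read 7.03, 7.76 and 7.86 in post-lactation 1 to 3. All 3 post-lactation arrays were below all 3 virgin arrays, as for Sqle, which makes 2 of 32 members against 1.49% of all genes. The difference was -0.48 (SE 0.24, limma adjusted p = 1), -0.89, -0.22 and -0.34 within sets, and -0.22 without post-lactation 1. A second probe set above 4.87 also gave -0.48.

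Sqle read 7.21, 7.14 and 7.34 in virgin 1 to 3, and 6.84, 7.01 and 6.76 in lactation 1 to 3. Its post-lactation values were 6.06, 6.70 and 7.12. All lactation and all post-lactation arrays lay below all virgin arrays, the latter by a narrow margin in set 2. Post-lactation minus virgin was -0.60 (SE 0.26, unadjusted p = 0.0407, limma adjusted p = 1), or -1.15, -0.02 and -0.63 within sets, and -0.32 without post-lactation 1. Lactation minus virgin was -0.36 (SE 0.26), or -0.45, -0.13 and -0.50 within sets.

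Among the later steps, Msmo1, which oxidises the methyl groups of the sterol ring, was the other gene whose lactation and virgin arrays did not overlap. It read 7.96, 7.47 and 7.33 in virgin 1 to 3, and 7.25, 7.17 and 7.26 in lactation 1 to 3. After weaning, arrays 1 to 3 read 6.85, 7.33 and 7.61. Virgin 1 was high, and the remaining gap between virgin and lactation was narrow. Lactation minus virgin was -0.36 (SE 0.25, limma adjusted p = 1), or -0.70, -0.30 and -0.08 within sets, and -0.18 without virgin 1. Its second probe set gave -0.18. With Sqle, 2 of 32 members were lower without overlap in that comparison, against 0.698% of all genes, and 0 were higher, against 2.06%.

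Nsdhl, the dehydrogenase that acts with Msmo1, was lower after weaning in every set. It read 7.56, 7.36 and 6.65 in virgin 1 to 3, and 6.65, 7.54 and 7.69 in lactation 1 to 3. In post-lactation 1 to 3 it read 6.96, 6.28 and 7.19. The set 3 arrays were the lowest of each group, so the groups overlapped although post-lactation was below lactation within each set. Post-lactation minus lactation was -0.48 (SE 0.35, limma adjusted p = 1), and -0.74, -0.35 and -0.37 within sets. It was -0.22 without post-lactation 2 and -0.81 without lactation 1. With the set block its SE was 0.10, its unadjusted p 0.00298 and its limma adjusted p = 0.0689.

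Cyp51, the lanosterol demethylase, had 6.75, 7.06 and 7.14 in virgin 1 to 3, and 6.70, 7.00 and 6.94 in lactation 1 to 3. Post-lactation 1 to 3 gave 6.11, 6.80 and 7.06. Only post-lactation 1 stood low, and post-lactation minus virgin was -0.33 (SE 0.26, limma adjusted p = 1), or -0.05 without that array. A dim probe set of Cyp51 disagreed: it gave -1.41 in lactation minus virgin and 1.16 in post-lactation minus lactation, where the one used gave -0.10 and -0.23. Of the remaining 6 enzymes, Lss, Tm7sf2, Hsd17b7, Ebp, Sc5d and Dhcr7, the differences ran from -0.28 for Sc5d to 0.18 for Dhcr7, both in lactation minus virgin.

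**Figure D3:**
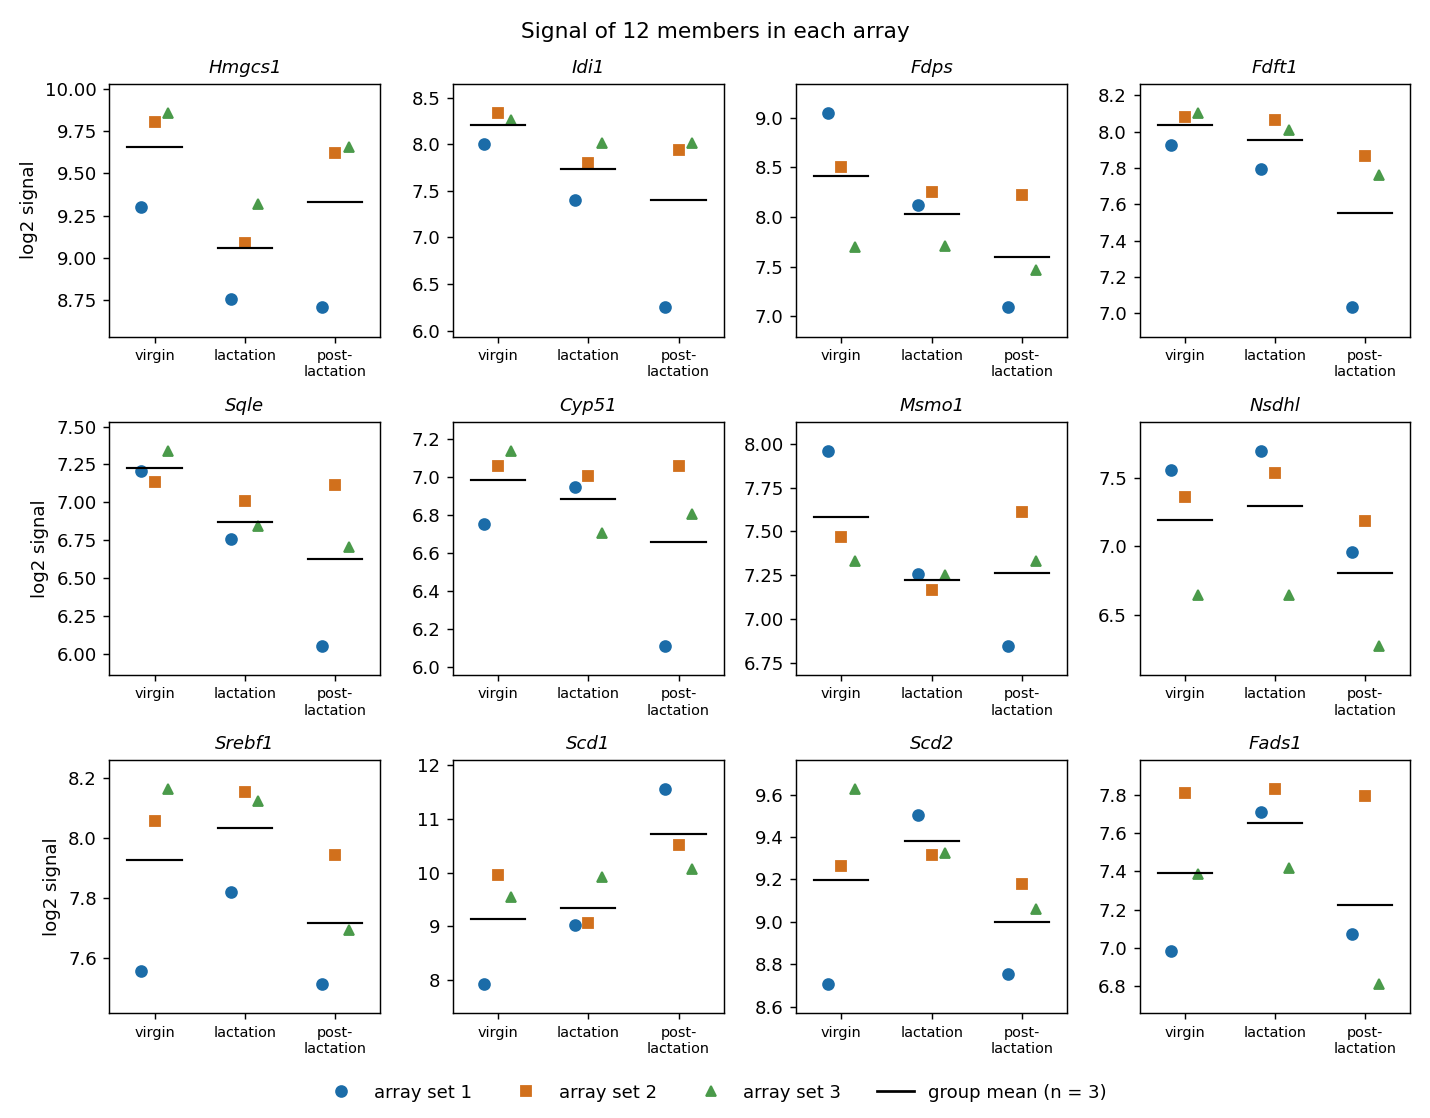
Log2 signal (y axis, its own range in each panel) of 12 members in each array by group, with array sets marked by colour and shape and a black line at the mean of 3 arrays. Hmgcs1 is lower in lactation than in virgin within every set. Post-lactation 1 is the lowest point in Hmgcs1, Idi1, Fdps, Fdft1, Sqle, Cyp51, Msmo1 and Srebf1, for example 6.25 for Idi1.

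Counts over the sterol genes within sets were as follows. A gene tied exactly in any set cannot count as lower or higher in all 3. Ties took up 14.6% of members' within-set pairs and 25.5% over all genes, so the shares of all genes are not a like base. In lactation minus virgin 5 of 17 were lower in all 3 sets, Hmgcs1, Idi1, Fdft1, Sqle and Msmo1, against 6.11% of all genes, and 2 were higher, Ebp and Dhcr7, against 10.4%. In post-lactation minus virgin 7 were lower in all 3, Hmgcs1, Idi1, Fdps, Fdft1, Sqle, Tm7sf2 and Nsdhl, against 8.15%, and 1 was higher, Hsd17b7, against 5.91%. These 7 do not cover the pathway throughout, since Mvk, Pmvk, Mvd, Lss, Cyp51 and Msmo1 were not lower in all 3 sets. For Mvk, Pmvk and Cyp51 the sets that were not lower were exact ties. In post-lactation minus lactation 5 were lower in all 3, Fdps, Fdft1, Nsdhl, Ebp and Dhcr7, against 16.1%, and 0 were higher, against 12.8%. With the set block 6 of 17 had an unadjusted p under 0.05 and were lower in post-lactation than in virgin, against 4.72% of all genes. They were the 7 above without Tm7sf2, and their adjusted p ran from 0.339 to 0.6 in limma.

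Of the 5 regulators 3 had a lower mean in lactation than in virgin, 3 after weaning than in lactation, and 4 in post-lactation than in virgin. Srebf1 encodes the SREBP that mainly drives fatty acid genes, and one of its isoforms is itself induced by insulin. It read 7.56, 8.06 and 8.16 in virgin 1 to 3, and 8.12, 8.15 and 7.82 in lactation 1 to 3. In post-lactation 1 to 3 it read 7.51, 7.69 and 7.94. Lactation and post-lactation overlapped, since lactation 3 lay below post-lactation 3. Post-lactation minus lactation was -0.31 (SE 0.23, limma adjusted p = 1), and -0.31, -0.21 and -0.43 within sets. With the set block its unadjusted p was 0.0173 and its limma adjusted p = 0.193.

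Srebf2, whose product mainly drives sterol genes, differed by -0.25 in lactation minus virgin (SE 0.32), and the 3 arrays of set 3 were exactly equal at 6.84. Scap, the escort of the SREBPs, differed by -0.14 in that comparison and 0.19 after weaning. Insig1, itself a target of SREBP, differed by -0.11 to -0.04 over the 3 comparisons. Insig2 was lowest in virgin 1, at 7.46 against 8.09 to 8.99 elsewhere. Its lactation minus virgin difference of 0.24 (SE 0.36) was 1.10, 0.00 and -0.38 within sets. All 3 of its probe sets gave 0.20 to 0.24.

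In lactation minus virgin 2 of 10 had a lower mean and 8 a higher one, with a median of 0.07, beside 47.2% of all genes lower and a median over all genes of 0.01. Within sets the median was 0.33, -0.0046 and -0.04. Without virgin 1 it was -0.05. In post-lactation minus lactation 5 of 10 were lower with a median of 0.03, beside 49.6% of all genes, and in post-lactation minus virgin 3 of 10 with a median of 0.01, beside 48.7%. Each of these 3 medians turned sign when some single array was left out. Scd1 alone differed by more than 1 in any comparison.

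Scd1 encodes a stearoyl-CoA desaturase that makes monounsaturated fatty acids and is abundant in fat cells. It read 7.92, 9.95 and 9.54 in virgin 1 to 3, and 9.92, 9.06 and 9.02 in lactation 1 to 3. In post-lactation 1 to 3 it read 11.55, 10.07 and 10.51. All 3 post-lactation arrays were above all 6 others. Post-lactation averaged 10.71 ± 0.76 (SD, n = 3), lactation 9.34 ± 0.51 and virgin 9.14 ± 1.07. Post-lactation was 2.59-fold the level of lactation (log2 difference 1.37, SE 0.52, unadjusted p = 0.0221, limma adjusted p = 0.689) and 2.98-fold that of virgin (1.58, SE 0.52, unadjusted p = 0.011, limma adjusted p = 1). Within sets 1 to 3 these differences were 2.53, 1.44 and 0.15 against lactation, and 3.63, 0.56 and 0.53 against virgin. With the set block limma's adjusted p was 0.385 and 0.602, and Scd1 was the 1 member higher than in virgin at an unadjusted p under 0.05, against 3.4% of all genes. Without post-lactation 1 the difference against lactation was 0.95, and without virgin 1 that against virgin was 0.97. Groups that did not overlap and were higher made up 3.26% and 1.17% of all genes in these comparisons, and Scd1 was the 1 member of 32 in each. A second, dimmer probe set gave 0.12 against lactation and 0.98 against virgin.

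Markers of fat cells were, on average, highest on the same array as Scd1. Of 12 adipocyte genes listed 10 were measured, and Cidec and Lep averaged below 4.87 in every group. A higher mean in post-lactation than in lactation was seen in 9 of the 10, with a median of 0.65. Of the 10, 0 were called and 3 were higher at an unadjusted p under 0.05 in limma, against 1.57% of all genes. The mean of the 10 above the array median was 3.03, 2.10 and 2.26 in post-lactation 1 to 3, 2.06 to 2.11 in virgin arrays and 1.87 to 2.10 in lactation arrays. Post-lactation 1 was the highest array for Scd1, for the mean of this list and for 6 of its 10 genes, the other 4 being Pparg, Lep, Cebpa and Lipe. Adipoq, the adipokine adiponectin, read 11.65, 10.57 and 11.46 in post-lactation 1 to 3. These overlapped its virgin arrays, at 9.97 to 11.27, and its lactation arrays, at 10.08 to 10.66. Lpl, a lipase that frees fatty acids from lipoproteins, read 11.80, 10.61 and 11.06 against 9.83 to 10.49 in virgin and 10.29 to 10.47 in lactation arrays. The part of these markers in the Scd1 values was not tested. Fasn, also abundant in fat cells, differed by -0.02 to 0.03 over the comparisons.

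**Figure D4:**
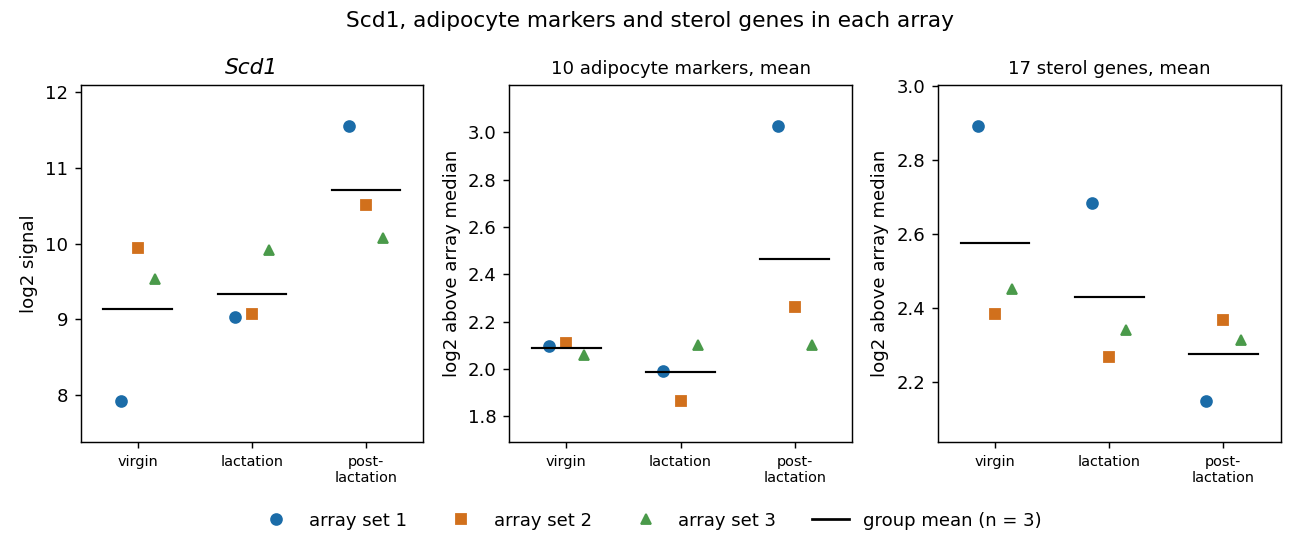
From left to right, log2 signal of Scd1, the mean of 10 adipocyte markers and the mean of 17 sterol genes (the last 2 as log2 above the array median) in each array by group, with array sets by colour and shape and lines at means of 3 arrays. Post-lactation 1 is the highest array for Scd1 (11.55) and for adipocyte markers (3.03) and the lowest for sterol genes (2.15).

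Scd2, a second stearoyl-CoA desaturase, prominent in brain, lay the other way from Scd1. It read 8.71, 9.27 and 9.63 in virgin 1 to 3, and 9.32, 9.31 and 9.50 in lactation 1 to 3. In post-lactation 1 to 3 it read 8.75, 9.06 and 9.18. Every post-lactation array was below every lactation array, and it was the 1 member of 32 lower without overlap in that comparison, against 4.38% of all genes. The difference was -0.38 (SE 0.25, limma adjusted p = 1), or -0.75, -0.14 and -0.26 within sets. A probe set of Scd2 with a mean of 4.74 showed another pattern: 3.20, 3.53 and 3.60 in virgin, 6.90, 3.64 and 5.86 in lactation and 4.39, 5.77 and 5.77 in post-lactation arrays 1 to 3. Its lactation minus virgin difference was 2.02, against 0.18 for the brighter one used.

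Fads1, the delta-5 desaturase of polyunsaturated fatty acids, read 6.98, 7.81 and 7.38 in virgin 1 to 3, and 7.42, 7.83 and 7.71 in lactation 1 to 3. Arrays 1 to 3 of post-lactation read 7.07, 6.81 and 7.79. The groups overlapped, and set 2 barely differed. Post-lactation minus lactation was -0.43 (SE 0.29, limma adjusted p = 1), or -0.64, -0.04 and -0.61 within sets, and -0.22 without post-lactation 2. Its partner Fads2 differed by -0.06 to 0.12 over the comparisons.

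On the probe sets used, the other synthesis enzymes differed little. Acly, ATP citrate lyase, was lower in lactation than in virgin by 0.19, 0.13 and 0.13 within sets 1 to 3, and higher after weaning than in lactation by 0.14, 0.15 and 0.20. These small differences were even, with a difference of -0.15 and then 0.16 and a block SE of 0.06, and limma adjusted p = 0.613 and 0.284 with the block. Other Acly probe sets above 4.87 gave larger differences. One with a mean of 8.94 gave -0.38 and then 0.33, the first being -0.52, -0.23 and -0.40 within sets. Another, with a mean of 6.86, gave -0.31 and then 0.43. Dim ones gave -0.02 to 0.07 and then -0.03 to 0.10. Acaca, acetyl-CoA carboxylase, differed by 0.07 to 0.23. The elongase genes Elovl1 and Elovl5 differed by -0.12 to 0.05, and Elovl6, which extends palmitate, was 0.28 and 0.30 higher in post-lactation than in lactation and virgin, with SE 0.26.

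Other genes of the pathway were counted from lists. Of 11 measured genes of other sterol and isoprenoid steps, 13 of cholesterol uptake, storage and efflux and 27 of other fatty acid and glyceride synthesis, 0 were called in any comparison by limma. At an unadjusted p under 0.05 the first and second list had 0 in each comparison, and the third had 2 in each. These counts take both directions together. Over all genes the shares lower and higher at that p were 0.291% and 1.51% in lactation minus virgin. They were 3.49% and 1.57% in post-lactation minus lactation, and 1.26% and 0.835% in post-lactation minus virgin. Medians of the 3 lists in lactation minus virgin were -0.01, 0.00 and -0.05. In post-lactation minus lactation they were 0.02, 0.12 and 0.15, and in post-lactation minus virgin 0.02, 0.17 and 0.03. With the set block 1 gene of the 27 in the third list passed, against 3.53% of all genes in that comparison, which is near its own share: Hacd4, a dehydratase of very-long-chain fatty acid elongation, rose after weaning by 0.75 (SE 0.19, limma adjusted p = 0.206, and 0.0323 with the block). It read 8.08, 8.11 and 8.01 in post-lactation 1 to 3 against 7.10 to 7.47 in lactation and 7.28 to 7.56 in virgin arrays. Every post-lactation array was above every other array.

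Markers of other cells also differed between the groups. All 11 measured erythroid markers had a lower mean in post-lactation than in lactation, with a median of -4.76. Of these 10 were called, against 0.709% of all genes. The mean of the 11 above the array median was 4.37 to 4.78 in lactation, 0.03 to 0.70 in post-lactation and 2.93 to 4.0 in virgin arrays. Of 11 cell division markers all 11 had a lower mean in post-lactation than in lactation, with a median of -0.62. Of these 1 was called (Rrm2), or 4 with the set block, against 0.709% and 3.53% of all genes. The mean level of the 11 was 3.80 to 4.40 in lactation, 3.29 to 3.67 in post-lactation and 3.45 to 4.42 in virgin arrays. All 6 osteoclast markers had a higher mean in lactation than in virgin, with a median of 1.40 and 0 called. At an unadjusted p under 0.05 in limma there were 5, against 1.51% of all genes. With the set block 1 was called, Dcstamp, against 0.022%. After weaning all 6 osteoclast markers had a lower mean, with a median of -1.24 and 0 called. At an unadjusted p under 0.05 in limma there were 5, against 3.49% of all genes. With the block 4 were called, Acp5, Ctsk, Dcstamp and Oscar, against 3.53%. The osteoclast level was 3.24 to 3.94 in lactation, 2.02 to 2.90 in post-lactation and 2.15 to 2.36 in virgin arrays. All 6 B lymphocyte markers had a higher mean in post-lactation than in lactation, with a median of 1.17, and 1 was called with the block, against 3.53% of all genes. Medians of Schwann, macrophage, osteoblast and neutrophil markers in that comparison were 0.08, 0.07, -0.02 and 0.31. With the block 1 of 7 neutrophil markers was called, Camp (limma adjusted p = 0.0369). The part of these cells in the sterol and fatty acid values was not tested.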

How the data were processed

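Total RNA of 9 tibial shaft samples was read on Affymetrix mouse expression arrays. The deposited table holds log2 values for 45101 probe sets, made by the authors with RMA per the submitters' processing notes. The version of RMA is not given in these sources, nor is a filter. Values ran from 1.55 to 14.9 with 0 missing. The table of probe genes named 1 gene for 34958 probe sets, several for 932 and none for 9211. Pairs of arrays with over 1% exactly equal values were joined into sets (2.50% to 44.1% equal within sets, at most 0.0044% between). Genes were compared with limma 3.58.1 in R 4.3.3 (lmFit, eBayes without trend, all 9 arrays, 6 residual degrees of freedom, or 4 with the set block). The fit was also run on simulated data without tied values, with planted changes larger than any member's difference on the probe sets used. That run therefore cannot show how the fit handles differences as small as those given here. Folds are 2 to the power of the log2 difference. The 40th percentile of gene means served as the dim level. With 3 arrays a group, their number limits precision. Alternatives were blocks by set or replicate number, median centring, quantile normalisation, no dim genes, the mean of all probe sets, an intensity trend and leaving out each array. Array values were given for members called in either fit, then for the smallest unadjusted p up to 12, and genes of the pathway lists were named where called. Members and lists were chosen with earlier results of these data known.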

Additional observations from a re-analysis of the deposited data

How the results depend on the processing

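The count of members called was 0 in each comparison under every alternative run: both blocks, median centring, quantile normalisation, dim genes left out, mean of all probe sets, intensity trend, and each array left out with or without the set block. Counts over all genes moved. Lactation against virgin called 0 genes, 4 with the set block and 1 each with median centring and quantile normalisation. Post-lactation against lactation called 129, 642 with the set block and 205 with quantile normalisation, and leaving out 1 array gave 76 (without lactation 2) to 927 (without virgin 1, with the block). Post-lactation against virgin called 32, 82 with the set block, and 0 to 42 with 1 array left out, the 0 without virgin 2 or post-lactation 1 with the block. With 1 array left out, with or without the block, the sterol median ran from -0.16 to 0.03 in lactation minus virgin, -0.25 to 0.03 in post-lactation minus lactation and -0.41 to -0.08 in post-lactation minus virgin. The fatty acid median ran from -0.05 to 0.22, -0.05 to 0.08 and -0.06 to 0.10, so only the sterol median against virgin after weaning kept its sign.

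With the mean of all probe sets Cyp51 in post-lactation minus lactation turned to 0.29 and Scd2 in post-lactation minus virgin to 0.47, where dim probe sets enter the mean. Leaving out 1 array without the block turned the sign of 54 of the 96 differences of all 32 members, none of them called. Of the 12 members given by array, these differences turned with or without the block. In lactation minus virgin the ranges were -0.54 to 0.73 for Scd1, -0.75 to 0.032 for Fdps, -0.16 to 0.035 for Fdft1, -0.066 to 0.39 for Scd2, -0.17 to 0.43 for Nsdhl, -0.078 to 0.23 for Srebf1 and -0.32 to 0.067 for Cyp51. In post-lactation minus lactation they were -0.49 to 0.042 for Sqle, -0.64 to 0.24 for Idi1, -0.18 to 0.35 for Msmo1 and -0.43 to 0.046 for Cyp51. In post-lactation minus virgin they were -0.45 to 0.011 for Scd2 and -0.45 to 0.044 for Fads1. The cause was not tested.

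Replicate numbers did not pair the samples: correlations of same-numbered arrays ran from -0.41 to 0.67, while those of arrays in one set ran from 0.47 to 0.73. With the replicate block 0 members were called in each comparison, and 0, 118 and 33 genes in all. The number of arrays, 3 a group, limits what could be called.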
